A study of Mus musculus with 17 samples.

Results

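The step from the DN2 to the DN3a stage of normal thymocyte development was measured by RNA sequencing in wild-type C57BL/6 mice. It was taken as the 3 libraries of wild-type young DN3a cells against the 2 libraries of wild-type young DN2 cells, 5 of the 17 libraries of the series, and described across 13534 tested genes of the 27179 in the deposited table. Both DN2 libraries came from mice aged 2.5 weeks, a female (mouse 1) and a male (mouse 2), and these mice also gave DN3a replicates 1 and 2. DN3a replicate 3 came from another animal, a female (mouse 492) aged 3 weeks, whose library name starts with another letter than the others. The series also holds cells of mice aged 2.5 weeks that carry an Lmo2 transgene, 3 libraries each of young DN2 and DN3a. The same 3 mice gave both stages, and their libraries are used here to show where the wild-type step differs. It further holds 3 libraries of wild-type old DN3a cells, from mice aged 8 to 10 weeks, which are given here as levels only. The 3 libraries of transgenic old DN3a cells, from mice aged 10 weeks or less, serve only in the model fitted to all 17 libraries. No further wild-type young DN2 library is analysed here. The sort gates and the promoter that drives the transgene were not given in the sources used here.

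Thymocytes pass through their first stages without CD4 or CD8 on the surface, which is what DN, double negative, stands for. DN2 cells divide, still carry the receptor Kit and the adhesion protein CD44 of earlier progenitors, and commit to the T lineage under Notch signals from the thymic stroma. DN3a cells have lost Kit and CD44, keep the interleukin-2 receptor alpha chain (Il2ra), slow their division and rearrange the T cell receptor beta locus with the RAG recombinase, and the beta chain is then tested for pairing with the pre-TCR alpha chain (Ptcra).

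Counted reads per library were 9411716 to 11360308, so 1 read was worth 0.0885 to 0.1 CPM (the usual depth-scaled read count, here on library sizes scaled by TMM). Genes with a read numbered 15089 to 15518 in 4 libraries and 13028 in DN2 replicate 1, which stood apart although its total was the largest. In log CPM the DN2 libraries correlated at 0.953 with each other, while DN2 replicate 2 correlated at 0.957 to 0.969 with the DN3a libraries, and the DN3a libraries at 0.971 to 0.988 with each other. Mitochondrial genes took 13.4% and 12.2% of reads in DN2 and 8.78%, 6.46% and 3.31% in DN3a. With these genes, Lars2 and an abundant unnamed feature removed before scaling, 857 genes were called in place of 888.

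DN3a cells held more RNA of the recombinase gene Rag1, of Ptcra and of the Notch genes Notch3, Dtx1 and Heyl than DN2 cells. They held less RNA of the progenitor genes Kit, Lyl1, Tal1, Hhex and Cd34 and of 20 of 26 genes of G2 and M phase. In all, 888 genes passed the test, 6.56% of those tested. Of these, 396 rose (2.93%) and 492 fell (3.64%) from DN2 to DN3a, by a median of 1.40 on the log2 scale, whatever the direction. Changes of at least 2-fold were found for 656 genes, of at least 4-fold for 228 and of at least 8-fold for 113, and 76 of the last were higher in DN3a. The median over all tested genes was 0.03, close to 0. The DN2 and DN3a libraries did not overlap for 883 of the 888 genes, against 42% of all tested genes. Within the mice that gave both stages, 886 of 888 genes differed in the direction of the call in both. The calls were made with these same libraries, so neither count is a separate check of them.

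**Figure D1:**
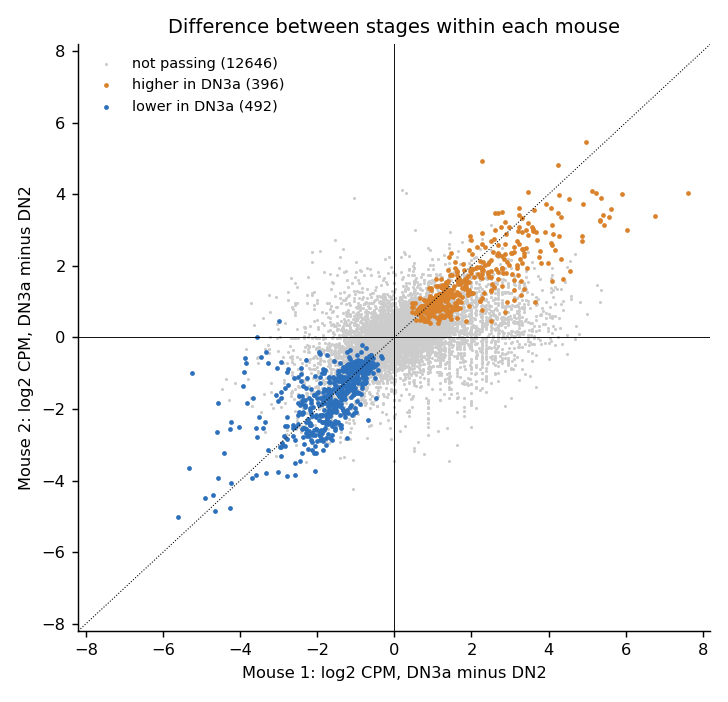
Difference in log2 CPM between DN3a and DN2 in mouse 1 (x axis) and in mouse 2 (y axis), 1 point per tested gene, with genes called higher in DN3a in orange, called lower in blue and others in grey; the dotted line marks equal differences. The called genes lie in the upper right and lower left, 886 of 888 with the same sign as the call in both mice, and these libraries were part of the test that made the calls.

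The number of calls rests on single libraries, as the plot of calls by left-out library shows. Without DN2 replicate 1 the wild-type DN2 group is 1 library, which is assumed to vary like the other groups, since it has no spread of its own. Only 10 genes then passed: Mpo, St6gal1, Ets2, Mdga1, Fam163b, Bmf, P2rx7, Ldhb, Tspan32 and Scn4b, all of them among the 888. Without that library 886 of the 888 genes kept their sign, 810 had an unadjusted p under 0.05, and the median size was 1.23 in place of 1.40. Without DN2 replicate 2, 1687 genes passed, 660 of the 888 among them. Calls numbered 269 without DN3a replicate 1, 129 without replicate 2 and 1097 without replicate 3. The last leaves only mice 1 and 2 in the wild-type step, without pairing their stages. With the mouse as a block, 942 genes passed in a fit of all young libraries, and 3514 in a fit of the 5 wild-type libraries, which leaves 1 residual degree of freedom. Of the genes named below that did not pass, Spi1 passed in both fits. Rag2, Cd3e, Bcl11b, Notch1, Il7r, Hes1, Gata3 and Tcf12 passed only in the second of these fits. With the name letter as a covariate in edgeR, Spi1, Rag2 (adjusted p = 0.0307), Notch1 (adjusted p = 0.0438) and Gata3 (adjusted p = 0.0251) passed as well.

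**Figure D2:**
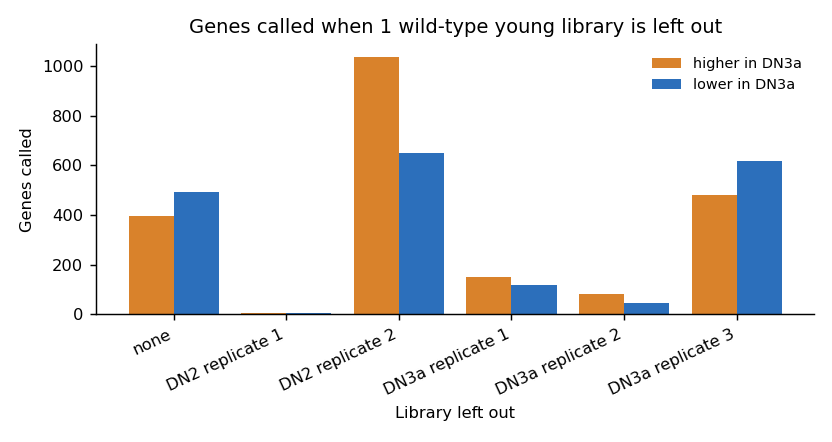
Genes called higher (orange) and lower (blue) in DN3a with all libraries and when each of the 5 wild-type young libraries is left out in turn; the y axis counts genes with an adjusted p under 0.05 (edgeR). The total falls from 888 to 10 without DN2 replicate 1 and to 129 without DN3a replicate 2, and grows to 1687 without DN2 replicate 2.

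The libraries of a stage were not alike in how far apart they lay. For 281 of the 396 genes that rose (71.0%) and 388 of the 492 that fell (78.9%), DN3a replicate 3 was the DN3a library nearest to DN2. Its median difference from the DN2 mean was 1.14 for the genes that rose, against 1.39 and 1.55 in replicates 1 and 2, and -0.98 for those that fell, against -1.46 and -1.73. Of the DN2 libraries, replicate 2 was the nearer one to DN3a for 324 of 396 and 335 of 492 genes. Mouse, age and library name letter change together in DN3a replicate 3 and cannot be told apart. That library also held more reads of the unnamed feature, 4.37% against 0.306% and 1.55% in DN3a replicates 1 and 2. Lars2 took 0.634% of its reads, against 0.0306% and 0.167%. All 3 libraries of old wild-type DN3a cells lay above both young DN2 libraries for 377 of the 396 genes that rose, and below both for 468 of the 492 that fell. Both sets of genes were called with these same DN2 libraries, so these counts are not an independent check. The same count over all tested genes is not given here.

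Kit and Cd44, which mark the earlier stage, fell, and Il2ra did not pass. Kit, the receptor of stem cell factor (Entrez gene 16590, chromosome 5, 75574987 to 75656722, GRCm38), stood at 152 and 126 CPM in DN2 and at 65.9, 56.8 and 80.1 CPM in DN3a. It fell by 1.04 ± 0.26 (log2, SE; adjusted p = 0.0262). Cd44 stood at 23.3 and 18.7 CPM in DN2 and at 2.68, 1.19 and 6.71 CPM in DN3a, a fall (-2.56 ± 0.53, adjusted p = 0.00979). For both genes every DN3a library lay below every DN2 library, and DN3a replicate 3 was the highest of the DN3a libraries. Il2ra, which both stages carry on their surface, stood at 1911 and 1796 CPM in DN2 and at 1899.7, 1999 and 2122 CPM in DN3a, overlapping, and did not pass (0.11 ± 0.21, adjusted p = 0.79). Cd4, Cd8a and Cd8b1, which mark later stages, were at 0.973 to 9.91 CPM in the 5 libraries. Lmo2 held 4 reads in DN2 and 9 in DN3a. In bulk samples, fewer cells of a type and less RNA per cell cannot be told apart. Without DN2 replicate 1, Kit moved by -0.88 (adjusted p = 0.312) and Cd44 by -2.38 (adjusted p = 0.135), so neither passed.

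**Figure D3:**
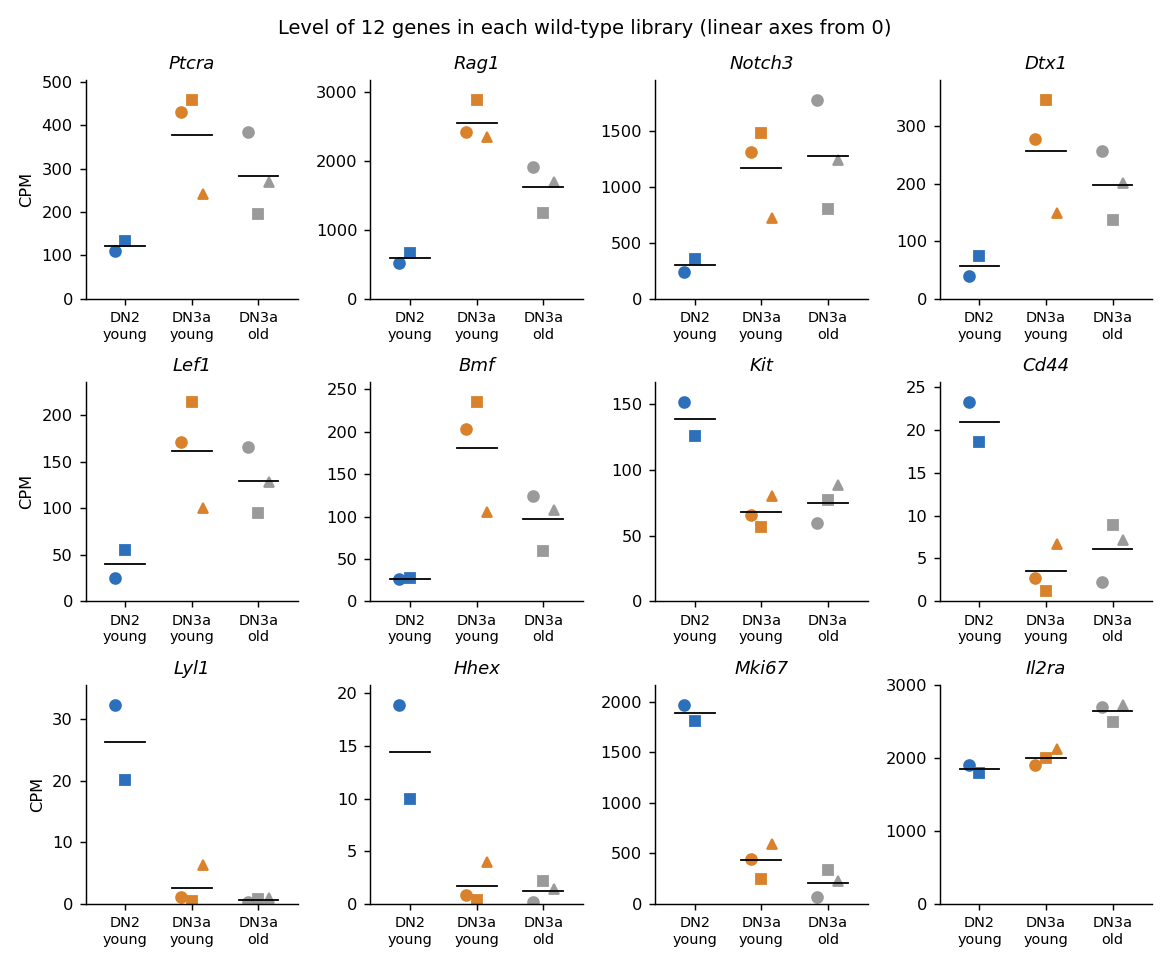
CPM of 12 genes in each wild-type library (y axes, linear from 0), with young DN2 in blue, young DN3a in orange and old DN3a in grey; circles, squares and triangles are replicates 1, 2 and 3 and black bars are group means. Ptcra, Rag1, Notch3, Dtx1, Lef1 and Bmf lie higher and Kit, Cd44, Lyl1, Hhex and Mki67 lower in every young DN3a library than in both DN2 libraries, and Il2ra overlaps between these stages.

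Ptcra and Rag1 were the leading genes of receptor assembly. Ptcra (Entrez gene 19208, chromosome 17, 46755663 to 46763712), whose protein pairs with the new beta chain, stood at 109 and 133 CPM in DN2 and at 429.7, 459 and 242 CPM in DN3a. It rose by 1.64 ± 0.35 (adjusted p = 0.0117), with no overlap between stages and replicate 3 the lowest of DN3a. Rag1 (Entrez gene 19373, chromosome 2, 101638252 to 101649532), a subunit of the recombinase, stood at 520.4 and 660.1 CPM in DN2 and at 2426, 2894 and 2358 CPM in DN3a, a rise of 2.12 ± 0.31 (adjusted p = 0.00169). Its partner Rag2 differed by 0.76 with the same sign and did not pass (adjusted p = 0.127). Dntt, the terminal transferase that adds bases at the joints, was among the most abundant genes at both stages, at 2149.5 and 2587 CPM in DN2 and 2022 to 3180 CPM in DN3a, and did not pass (0.06, adjusted p = 0.918). Of 15 genes of V(D)J recombination, Rag1 was the only one that rose, and 0 fell, against 6.56% of all tested genes that passed. With DN2 replicate 1 left out, Ptcra moved by 1.52 (adjusted p = 0.188) and Rag1 by 1.97 (adjusted p = 0.0857), and neither passed.

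Of 24 genes of pre-TCR and TCR signalling, 3 passed, against 6.56% of all tested genes. Of these, 2 rose, Ptcra among them, and 1 fell, Cd5, a negative regulator of receptor signals (-0.89 ± 0.22, adjusted p = 0.0231). Their median was 0.23, against 0.03 over all tested genes. Cd3e, a chain of the CD3 complex, did not pass (0.36, adjusted p = 0.446). On leaving out DN2 replicate 1, 0 of the 24 passed, and their median was 0.24. Without DN3a replicate 1, 1 passed, and without replicate 2, 0 passed.

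Reads on the receptor loci were counted per segment. Summed over segments, the beta locus stood at 1892 and 1781 CPM in DN2 and at 1039, 872 and 1329 CPM in DN3a, and the delta locus at 555 and 374 against 242, 216 and 345 CPM. The gamma locus stood at 1774 and 1566 CPM in DN2 and at 1731, 1570.1 and 2001 CPM in DN3a, overlapping. Of these sums, variable segments made up 135 and 141 CPM in DN2 and 333, 333 and 305 CPM in DN3a for gamma, and 127 and 163 against 151, 143 and 212 CPM, overlapping, for beta. Of 15 gamma segments tested, Trgv4 (1.70 ± 0.31, adjusted p = 0.00548), Trgv1 (1.45) and Trgv2 (1.04) rose, and of 38 beta segments Trbj2-1 fell (-1.45 ± 0.39). None of 12 alpha and 8 delta segments passed with edgeR, and 6.56% of all tested genes passed. Segments of a family are nearly identical and reads can be split between them, so these values are uncertain.

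Of the Notch pathway, a receptor and several targets rose. Notch3, a receptor that is also a Notch target, stood at 244 and 357 CPM in DN2 and at 1311, 1489 and 725 CPM in DN3a, a rise of 1.97 ± 0.37 (adjusted p = 0.00699). Dtx1, a ubiquitin ligase and target of the pathway, rose by 2.18 ± 0.33 (adjusted p = 0.00216), from 38.8 and 75.0 CPM to 278, 346 and 149 CPM. Heyl, a repressor induced by Notch, rose from 0.531 and 3.41 CPM to 12.4, 10.5 and 11.5 CPM (2.56 ± 0.50). In each of these the stages did not overlap, and in Notch3 and Dtx1 DN3a replicate 3 lay nearest to DN2. Notch1, the receptor that thymic Notch signals act through, was higher in all DN3a libraries, at 1896, 2381 and 1436 CPM against 789 and 1005 CPM, but did not pass (1.09 ± 0.37, adjusted p = 0.0836). The target Hes1 did not pass either (0.53, adjusted p = 0.193), and Hey1, another repressor of the family, had no read in DN2 and stood at 0.358, 0.198 and 2.57 CPM in DN3a, mostly in replicate 3 (adjusted p = 0.106). Without DN2 replicate 2, Heyl moved by 4.41, and without DN2 replicate 1 by 1.76.

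Of 13 Notch targets, 4 rose (Notch3, Heyl, Dtx1 and Ptcra) and 0 fell, with a median of 0.21. Over all tested genes, 2.93% rose and 3.64% fell. Of 15 receptors and pathway parts, Notch3 alone rose and 0 fell. Their median was 0.31, but 0.076 without DN2 replicate 1 and 0.60 without DN2 replicate 2. The targets' median was 0.37 without DN2 replicate 2. In both lists 0 genes passed without DN2 replicate 1, which gave Notch3 at 1.73 (adjusted p = 0.146) and Dtx1 at 1.79 (adjusted p = 0.0928).

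**Figure D4:**
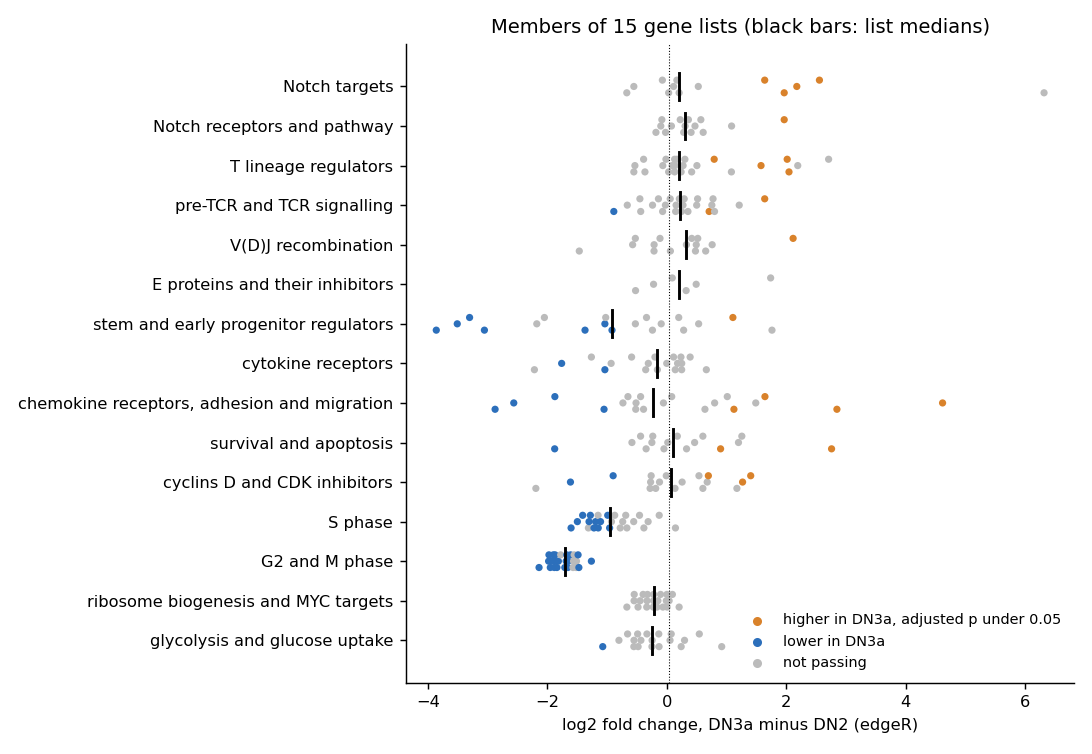
log2 fold change from DN2 to DN3a (x axis, edgeR) of each tested member of 15 gene lists (rows), in orange where higher in DN3a, blue where lower and grey where the test was not passed; black bars are list medians and the dotted line is the median of all tested genes. Members of the G2 and M phase list lie together around -1.70, the progenitor list spreads from -3.86 to 1.76, and the grey point at the far right is Hey1.

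Of 24 T lineage regulators, 4 rose and 0 fell, with a median of 0.21, against 2.93% of all tested genes that rose. Lef1, a high mobility group factor that acts beside Tcf7, stood at 24.6 and 55.5 CPM in DN2 and at 171, 214 and 101 CPM in DN3a (2.02 ± 0.45, adjusted p = 0.015). Ets2, an ETS family factor, stood at 36.7 and 48.3 CPM in DN2 and at 116, 155 and 110.3 CPM in DN3a (1.58 ± 0.19, adjusted p = 0.000416). Ets2 was called also without DN2 replicate 1, at 1.40 (adjusted p = 0.0434), while the other 3 were not. Left without DN3a replicate 1 the list had 2 calls, and without replicate 2 it had 1. The other genes that rose were Spry1, an inhibitor of receptor kinase signals (2.05 ± 0.50; 1.34 without DN2 replicate 1 and 3.46 without replicate 2), and Nfatc2, a calcium-regulated factor (0.79 ± 0.22), which lost its call with the mouse as a block. Bcl11b, the commitment factor, stood at 800.1 and 785 CPM in DN2 and 853 to 1053 CPM in DN3a and did not pass (0.27, adjusted p = 0.422), nor did Tcf7 (0.03, adjusted p = 0.952) or Gata3 (-0.55, adjusted p = 0.0577). Of 6 E proteins and inhibitors tested, which bind DNA at E-boxes or block that binding, 0 passed with edgeR, Tcf3 (-0.22) and Tcf12 (0.49) among them.

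Several regulators of stem and early progenitor cells fell. Of 19 tested, 7 fell (Kit, Lyl1, Tal1, Hhex, Cd34, Nfe2 and Lmo4), 1 rose (Mycn), and the median was -0.92. Over all tested genes, 3.64% fell and 2.93% rose. Lyl1, a basic helix-loop-helix factor of progenitors, stood at 32.4 and 20.2 CPM in DN2 and at 1.07, 0.494 and 6.34 CPM in DN3a, a fall (-3.30 ± 0.56, adjusted p = 0.00413). Hhex, a homeobox factor, stood at 18.9 and 9.93 CPM in DN2 and at 0.805, 0.396 and 3.95 CPM in DN3a (-3.05 ± 0.60, adjusted p = 0.00837). Tal1, a relative of Lyl1, fell from 8.31 and 3.71 CPM to 0 to 1.103 CPM, and Cd34, a surface marker of progenitors, from 6.19 and 8.93 CPM to 0 to 1.75 CPM. In all 4 the highest DN3a library was replicate 3, and without it Lyl1 moved by -5.02, Tal1 by -6.64 and Cd34 by -6.13. Spi1, the factor PU.1 that is switched off at commitment, stood at 14.0 and 3.61 CPM in DN2 and 1.16, 0.396 and 4.78 CPM in DN3a, overlapping, and did not pass (-2.05, adjusted p = 0.0625). With the mouse as a block over the young libraries Spi1 passed, at -3.42 ± 0.44 (adjusted p = 0.000394), and it was lower in DN3a in both mice, by -3.37 and -2.65 in log2 CPM. It also passed with the name letter as a covariate (adjusted p = 0.00126). The block takes nothing from DN3a replicate 3, the library that overlaps DN2, because its mouse gave no DN2 library. With DN2 replicate 1 left out, Spi1 moved by only -0.75. Without DN2 replicate 1, 0 of the 19 passed and the median was -0.48, with Lyl1 at -2.91 (adjusted p = 0.0928). Without DN2 replicate 2, 8 fell and 2 rose, and 2 and 1 fell without DN3a replicates 1 and 2.

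Promoter windows of 4 genes are shown because Ptcra, Rag1 and Bmf rose, Lyl1 fell, and each window holds an E-box, the site that E proteins bind. The genes were chosen after their matches were seen. The windows run from 250 bases before to 50 after the start in RefSeq (GRCm38.p6), 5′ to 3′ on the gene's strand, with matches on either strand to the E-box CAGCTG, or to its variant spelled CACCTG, in capitals. They lie at chr17:46763663-46763962 (Ptcra, minus strand), chr2:101649483-101649782 (Rag1, minus strand), chr2:118544538-118544837 (Bmf, minus strand, the first of 3 windows listed) and chr8:84701207-84701506 (Lyl1, plus strand).
Ptcra: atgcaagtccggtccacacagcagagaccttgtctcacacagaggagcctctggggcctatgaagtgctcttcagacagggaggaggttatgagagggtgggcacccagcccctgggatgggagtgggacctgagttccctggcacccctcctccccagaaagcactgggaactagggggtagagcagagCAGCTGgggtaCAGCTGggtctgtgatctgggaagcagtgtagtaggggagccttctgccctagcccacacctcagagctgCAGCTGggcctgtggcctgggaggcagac
Rag1: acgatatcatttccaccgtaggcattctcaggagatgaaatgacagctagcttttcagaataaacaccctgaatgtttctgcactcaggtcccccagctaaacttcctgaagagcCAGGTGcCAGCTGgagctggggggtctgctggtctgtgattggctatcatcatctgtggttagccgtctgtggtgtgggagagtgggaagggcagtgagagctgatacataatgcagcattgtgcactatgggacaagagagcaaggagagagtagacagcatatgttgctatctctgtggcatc
Bmf: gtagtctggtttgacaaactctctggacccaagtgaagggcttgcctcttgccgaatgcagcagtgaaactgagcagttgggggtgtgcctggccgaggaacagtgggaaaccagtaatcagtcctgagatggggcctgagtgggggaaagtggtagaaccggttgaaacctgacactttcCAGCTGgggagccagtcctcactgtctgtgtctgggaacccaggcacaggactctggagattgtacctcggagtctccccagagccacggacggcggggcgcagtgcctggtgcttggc
Lyl1: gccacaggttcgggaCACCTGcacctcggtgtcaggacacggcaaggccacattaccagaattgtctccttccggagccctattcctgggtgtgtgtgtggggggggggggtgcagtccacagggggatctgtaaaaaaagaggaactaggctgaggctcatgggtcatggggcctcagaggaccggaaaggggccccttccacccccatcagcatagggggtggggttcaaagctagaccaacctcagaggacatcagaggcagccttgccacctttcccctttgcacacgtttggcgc

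The Ptcra window holds the first spelling 3 times, the Rag1 window holds each spelling once, the Bmf window the first once and the Lyl1 window the variant once. Searched on both strands, either E-box was present in 35.8% of 302 promoters of genes that rose, 28.7% of 383 of genes that fell, 29.3% of the 10166 tested genes with a window, and 32.6% of all 27025 windows. In the 150 bases before the start these shares were 22.5%, 13.8%, 15.1% and 17.7%. The shares of the other motifs, also on both strands, follow in that same order. TGTGGT (RUNX) was in 9.6%, 14.4%, 12.8% and 16.9%. The GATA factor motif, spelled AGATAA, was in 3.97%, 7.31%, 6.64% and 11.4%. CTTTGA (TCF/LEF) was in 11.3%, 11.5%, 12.1% and 16.2%. GTGGGAA (RBPJ, the DNA-binding partner of Notch) was in 7.95%, 6.27%, 6.04% and 6.39%, and GAGGAAGT (PU.1) in 2.32%, 3.66%, 3.18% and 3.28%. These are matches of letters and were not tested, and a match is not a bound site.

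Most genes of mitosis fell. Mki67, the proliferation marker (Entrez gene 17345, chromosome 7, 135689784 to 135716450), stood at 1975 and 1813 CPM in DN2 and at 444, 249.4 and 597 CPM in DN3a, a fall (-2.14 ± 0.47, adjusted p = 0.0124). Top2a, the topoisomerase of dividing cells, stood at 1208 and 1273 CPM in DN2 and at 300.2, 211 and 546 CPM in DN3a (-1.81 ± 0.39, adjusted p = 0.0115). Both DN2 libraries lay far above every DN3a library in these genes, and DN3a replicate 3 was again nearest to DN2. Of 26 genes of G2 and M phase, 20 fell and 0 rose, the remaining 6 were lower without passing, and for all 26 the stages did not overlap, against 42% of all tested genes. Their median was -1.70, and 3.64% of all tested genes fell. The mitotic kinases Cdk1 (-1.98 ± 0.45) and Plk1 (-1.97 ± 0.36), cyclin Ccnb1 (-1.95 ± 0.51) and Birc5, also called survivin (-1.88 ± 0.50), were among those that fell. Summed over the list, the libraries stood at 6900.4 and 6849.9 CPM in DN2 and 1781, 1115 and 2986 CPM in DN3a. Without DN2 replicate 1, 0 of the 26 passed although the median was -1.72. The count was 12 without DN2 replicate 2, 2 and 1 without DN3a replicates 1 and 2, and 26 without DN3a replicate 3 or with the mouse as a block.

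Of 25 genes of S phase, 11 fell and 0 rose, with a median of -0.96. Of all tested genes, 3.64% fell and 2.93% rose. Tyms, which makes thymidylate, stood at 142 and 120.3 CPM in DN2 and at 40.6, 33.4 and 55.7 CPM in DN3a (-1.60 ± 0.29, adjusted p = 0.00537). Gins1 and Cdc45, parts of the replicative helicase, fell by 1.497 and 1.301, and Tk1 and Mcm3 fell by 1.41 and 0.99 on the log2 scale. Without DN2 replicate 1, 0 of the 25 passed (median -0.87), and without DN3a replicates 1 and 2 the counts were 4 and 1. Among 18 cyclins D, CDK inhibitors and relatives, 3 rose and 2 fell, beside the same shares of all tested genes. The antiproliferative genes Btg1 (1.27 ± 0.26) and Btg2 (1.41 ± 0.29) rose, as did Rbl2. The CDK inhibitor Cdkn2c (-1.61 ± 0.36) and Rbl1, a retinoblastoma relative (-0.90 ± 0.19), fell. Btg2 was at 82.9 and 111 CPM in DN2 and at 254, 337 and 181 CPM in DN3a.

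**Figure D5:**
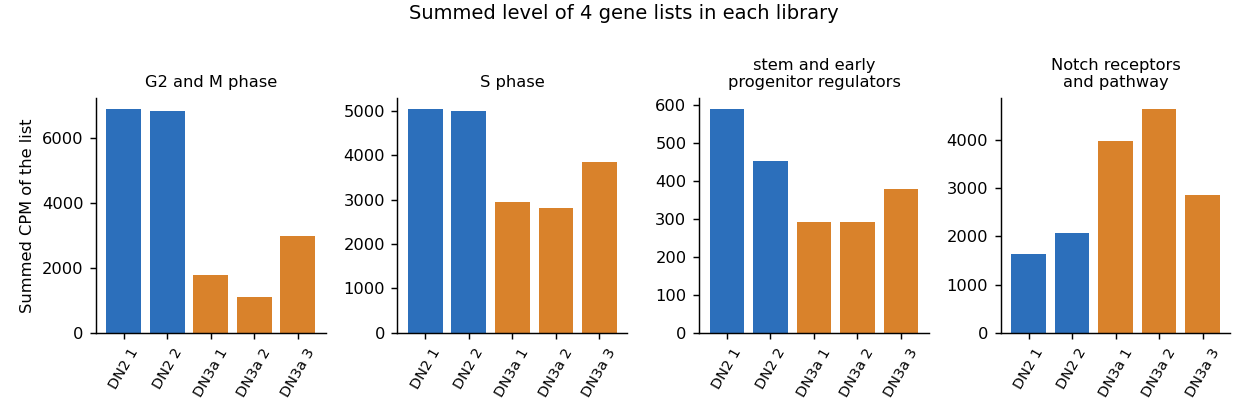
Summed CPM of 4 gene lists in each library (bars from 0), DN2 in blue and DN3a in orange. The G2 and M phase sum is 6900.4 and 6849.9 in DN2 and 1115 to 2986 in DN3a, and in every list DN3a replicate 3 lies nearest to the DN2 libraries of the 3 DN3a libraries.

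Of 22 genes of ribosome biogenesis and MYC targets, 0 passed with edgeR (median -0.22). Of 19 genes of glycolysis and glucose uptake, the phosphofructokinase Pfkp fell (-1.07 ± 0.19, adjusted p = 0.00471), with a median of -0.25. Of 15 amino acid transporters and serine pathway genes, the folate enzyme Mthfd2 fell (-1.06 ± 0.23). Of 21 cholesterol genes, 2 rose, among them Dhcr7 (0.76 ± 0.19), an enzyme of the last steps of synthesis. None of 20 genes of DNA methylation and chromatin passed with edgeR. These counts stand against 6.56% of all tested genes. In these 5 lists 0 genes passed without DN2 replicate 1.

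Receptors for homing and cytokines went both ways. Among 20 chemokine receptors, adhesion and migration genes, 4 rose and 4 fell, against 2.93% and 3.64% of all tested genes. Itgae, the integrin alpha E chain that binds epithelial cadherin, rose from 2.57 and 6.52 CPM to 35.9, 44.0 and 18.1 CPM (2.85 ± 0.52, adjusted p = 0.00555). Ccr9, the receptor of the thymic chemokine CCL25, rose from 46.9 and 42.5 CPM to 170.5, 133 and 116 CPM (1.65 ± 0.47, adjusted p = 0.0457), and Gpr183, an oxysterol receptor, from 0 and 0.501 CPM to 8.32, 6.63 and 3.68 CPM (4.62 ± 0.95). Besides Cd44, the integrin chain Itgb7 (-1.87 ± 0.34) and the receptor Cxcr5 (-2.87 ± 0.69) were among those that fell. Cxcr5 stood at 9.64 and 2.31 CPM in DN2 and at 0.368 to 1.25 CPM in DN3a, moved by -1.49 without DN2 replicate 1 (adjusted p = 0.549), and lost its call with the mouse as a block. Of 19 cytokine receptors, Kit and the interleukin-4 receptor chain Il4ra (-1.76 ± 0.38) fell and 0 rose, beside the same shares of all tested genes. Il7r, the receptor of the thymic survival cytokine, did not pass (-0.31, adjusted p = 0.357). Of either list, 0 genes passed without DN2 replicate 1, and 0 cytokine receptors passed without DN3a replicate 1 or 2. The migration list then had 2 rises with 2 falls (without DN3a replicate 1) or 1 fall (without replicate 2).

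Among 16 survival genes, 2 members that promote cell death rose, against 2.93% of all tested genes. Bmf, a BH3-only protein, stood at 25.8 and 27.6 CPM in DN2 and at 203, 235 and 105 CPM in DN3a (2.76 ± 0.32, adjusted p = 0.000275) and was called also without DN2 replicate 1 (2.73, adjusted p = 0.0269). Its relative Bcl2l11 rose less (0.90 ± 0.20, adjusted p = 0.0153), from 40.2 and 37.2 CPM to 78.7, 79.7 and 58.7 CPM, and was not called without that library. Birc5, also on the mitotic list, was the 1 that fell, against 3.64% of all tested genes.

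The largest rises are given among called, named genes with at least 5 CPM in DN3a and no overlap. Igf2, an insulin-like growth factor, held 5 reads in DN2 and 354 in DN3a, or 0 and 0.501 CPM against 12.5, 11.4 and 9.10 CPM (5.45 ± 0.86, adjusted p = 0.00252). Ephx3 (5.33 ± 0.93), an epoxide hydrolase, and Fat4 (5.29 ± 0.76), a large cadherin, held 4 reads each in DN2. Fam163b stood at 0.796 and 14.4 CPM in DN2 and 198, 242 and 92.5 CPM in DN3a (4.56 ± 0.70), and Scn4b, a sodium channel beta subunit, at 5.13 and 14.0 CPM against 201, 233 and 132 CPM (4.31 ± 0.45, adjusted p = 0.000133). These 2 held the higher levels in the set and were called also without DN2 replicate 1, at 3.63 and 3.76. The others by size were Rgl3 (4.63), Gpr183 (4.62), Fam13a (4.46), the glutamate receptor subunit Gria2 (4.26), Kirrel (4.25), the cytokine Il34 (4.09) and the basement membrane proteoglycan Hspg2 (3.93). Hspg2 stood at 22.5, 30.0 and 8.73 CPM in young DN3a, but at 2.33, 1.27 and 2.43 CPM in the old DN3a libraries, near the DN2 libraries at 0.973 and 1.70 CPM. Left without DN2 replicate 2, Igf2 moved by 9.69, Gria2 by 9.33, Kirrel by 9.15 and Rgl3 by 9.14. Gpr183 then moved by 8.87, Fam163b by 7.79 and Fam13a by 7.00. Left without DN2 replicate 1, Igf2 moved by 4.43, Gria2 by 3.24, Kirrel by 3.23 and Rgl3 by 3.62. Gpr183 then moved by 3.61, Fam163b by 3.63 and Fam13a by 3.55. Igf2, Gria2, Kirrel, Rgl3 and Gpr183 had no read in DN2 replicate 1. The sizes of these rises thus rest on single DN2 libraries. In all 12 the young stages did not overlap, which the choice of these genes required.

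By the same rule, with at least 5 CPM in DN2, the largest falls were led by P2rx7, an ATP-gated channel, at 8.14 and 7.42 CPM in DN2 and at 0.179, 0.593 and 0.368 CPM in DN3a (-4.33 ± 0.40, adjusted p = 3.23e-05). P2rx7 was called also without DN2 replicate 1 (-4.25, adjusted p = 0.00103), as was Mdga1, a membrane-anchored adhesion protein, at 24.0 and 21.0 CPM against 0.716, 0.791 and 4.50 CPM (-3.47 ± 0.43, adjusted p = 0.000468). Ifitm1 (-4.15), Emilin2 (-3.85), Samhd1 (-3.39), Nxpe5 (-3.34), Drc7 (-3.27) and Eldr (-3.10) followed beside Tal1, Cd34, Lyl1 and Hhex, and were not called without that library. Ifitm1 and Samhd1 were uneven between the DN2 libraries, at 8.85 and 1.40 CPM and at 9.29 and 2.61 CPM, and moved by -2.27 and -2.19 without replicate 1. Emilin2 moved by -6.01 without DN3a replicate 3.

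Of 13 genes of beta selection and the double positive stage, 3 passed, against 6.56% of all tested genes. Of these, 1 rose, the repressor Bcl6, from 1.33 and 3.01 CPM to 8.95, 8.31 and 5.05 CPM (1.78 ± 0.41, adjusted p = 0.0159). The sialyltransferase St6gal1 (-2.57 ± 0.36) and the tetraspanin Cd81 (-1.25 ± 0.30) fell. St6gal1 was called also without DN2 replicate 1. Of 12 genes of mature T cells, 2 fell, Itgb7 among them, and 0 rose, against 3.64% of all tested genes that fell. Of 12 gamma delta genes, 5830411N06Rik, matched from the listed name Scart2, fell (-1.46 ± 0.38, adjusted p = 0.0288). In the interferon list 1 gene rose, and 21 of 22 did not pass. In the early response list Btg2 rose and 16 of 17 did not pass, with a median of 1.41 and sums of 359 and 376 CPM in DN2 and 614, 669 and 1301 CPM in DN3a, highest in replicate 3. The median was 0.44 without DN3a replicate 3, and 0.44 with the mouse as a block. Its part in the results was not tested.

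Markers of other cells that a sort could hold were read as a check. Of the mast cell list, 5 of 8 genes had no read in the 5 libraries, and Cpa3, a carboxypeptidase that early progenitors also express, fell from 295 and 170.4 CPM to 15.03, 6.03 and 70.0 CPM (-2.94 ± 0.67, adjusted p = 0.0158; -4.46 without DN3a replicate 3). Mpo, a myeloid granule enzyme, fell from 4.95 and 1.103 CPM in DN2 to no read in DN3a (adjusted p = 0.00106), with most of its 67 reads in DN2 replicate 1, 6 of 14 myeloid genes at 0 and list sums of 20.4 and 28.5 CPM in DN2 and 19.1 to 30.0 CPM in DN3a. The B cell list summed to 629 and 723 CPM in DN2 and 717 to 957 CPM in DN3a, with its marker Pax5 at 0. Its ETS factor Spib rose from 46.3 and 46.4 CPM to 160.1, 191 and 84.5 CPM (1.65 ± 0.33, adjusted p = 0.00911). In the old DN3a libraries Spib stood at 63.2, 37.9 and 56.2 CPM, overlapping the DN2 libraries. Of the stroma list, the epithelial genes Epcam (1.42 ± 0.23, adjusted p = 0.00369) and Cldn4 (2.58 ± 0.55, adjusted p = 0.0117) rose, from 35.4 and 60.1 to 104 to 142 CPM and from 9.02 and 9.83 to 27.1 to 74.8 CPM, while Krt5, Krt8 and Foxn1, which define thymic epithelium, had no read in any of the 5 libraries. In all, 5 of the list's 12 genes were at 0. Of the 5 tested, 3 moved up, Epcam and Cldn4 among them, and 2 moved down. Epcam and Cldn4 alone passed, and 3 did not. The median of those tested was 1.42, but 0.93 without DN2 replicate 1. The list's sum was 217 and 224 CPM in DN2 and 280 to 332 CPM in DN3a. The part of other cells in these results was not tested. Natural killer genes summed to 276 and 309 CPM in DN2 and 189 to 248 CPM in DN3a, with 7 of 15 at 0 and none passing with edgeR. Dendritic cell, erythroid and platelet lists had no member that passed with edgeR, at sums of 163 to 237, 2.48 to 12.9 and 35.8 to 60.1 CPM.

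The same step was compared between wild-type and Lmo2-transgenic cells. The interaction of genotype with stage passed for 2834 genes, 20.9% of those tested, and for 555 of the 888 genes of the wild-type step (62.5%), a set chosen with the same wild-type libraries. For 157 of the 396 genes that rose and 351 of the 492 that fell, the wild-type change was the larger in its own direction by this test. Left without DN2 replicate 1, the interaction passed for 1654 genes. All 26 G2 and M phase genes passed, with a median of -1.70 in wild-type and 1.11 in transgenic cells, and 24 of 25 S phase genes passed. Mki67 stood at a mean of 1894 CPM in wild-type DN2 and 430.1 CPM in DN3a, and at 307 and 781 CPM in transgenic cells (interaction -3.49 ± 0.63, adjusted p = 0.00107).

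Notch3, Dtx1 and Bmf rose by more in wild-type cells (interaction 1.44 ± 0.47, 2.06 ± 0.42 and 2.33 ± 0.40). Dtx1, for example, had means of 56.9 and 257 CPM in wild-type DN2 and DN3a, against 202 and 219.7 CPM in transgenic cells. Ptcra and Rag1 went the other way (interaction -3.24 ± 0.48 and -1.63 ± 0.38). Ptcra had means of 121 and 377 CPM in wild-type cells, and of 4.003 and 121 CPM in transgenic cells, which started lower. Kit fell by less in wild-type cells (1.23 ± 0.36), from 139 to 67.6 CPM against 586 to 122 CPM. The largest interactions among genes of the wild-type step were those of Gpr183 (5.24 ± 1.15), Pla2g4c (-5.11 ± 0.73), P2rx7 (-4.70 ± 0.47), Colq (-4.60 ± 0.32) and Bcl6 (4.49 ± 0.54). Colq, a collagen-tailed anchor of acetylcholinesterase, fell from a mean of 60.6 to 25.2 CPM in wild-type cells, and stood at 17.8 and 180.4 CPM in transgenic DN2 and DN3a.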

How the data were processed

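The authors deposited whole-number counts per gene; the submitters' processing notes name featureCounts and the mm10 build. Libraries were made with a TruSeq kit and sequenced as single reads, per the labels' protocols; aligner, annotation and strand were not given in the sources used here, and overlapping or near-identical genes are uncertain. The 17 single-library files equalled the columns of the combined table. Of 27179 Entrez identifiers, 25275 were named from RefSeq (GRCm38.p6) and 18 from GENCODE, and 1886 stayed unnamed.

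Counts of all 17 libraries were filtered with edgeR's filterByExpr (minimum count 10, total 15), and TMM-scaled. The quasi-likelihood model of edgeR 4.0.16 under R 4.3.3 had 1 mean per group. The contrast was wild-type young DN3a minus DN2, adjusted by Benjamini-Hochberg over 13534 genes at 0.05. SE is the size of the log2 fold change over the square root of F, and log CPM used a prior count of 2. Depth was 9411716 to 11360308 counted reads. Samples are single mice, so p-values rest on few animals. The spread behind them is shared over all groups, transgenic and old cells included, with 11 residual degrees of freedom. The main fit has no mouse term and treats the stages of the same mouse as independent.

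Wild-type replicates 1 and 2 of the stages are the same mice per the labels. Their differences between mice correlated at 0.193 between stages, across genes; genes are not independent replicates. The members and the 31 gene lists (509 genes) were chosen with earlier results of these data known. Named genes are the stage genes, the 12 largest changes each way among called genes with at least 5 CPM in the higher group and no overlap, up to 4 called members of each list or its first 3, and the 5 largest interactions; other members named in counts or as markers were chosen after their values were seen, and list members at very low levels are given by count only. Alternatives were RLE, DESeq2 1.42.0, limma voom (3.58.1) with quality weights, no filter, covariates, removed features, mouse blocks, only the 5 libraries, and leaving out each young library. The procedure was also run on simulated counts, drawn without mouse pairing and without an outlying library. That run cannot speak to the dependence of the calls on single libraries. Promoter windows matched 10166 of 13534 tested genes by gene ID or symbol, taking the first listed. Some genes the naming rule picks are not reported here.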

Additional observations from a re-analysis of the deposited data

Results flagged for a closer look

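The step from DN2 to DN3a differed between wild-type and Lmo2-transgenic cells by the interaction test (edgeR, Benjamini-Hochberg) for 2834 genes. Values are wild-type minus transgenic differences of the log2 change. Among genes picked for the text after their values were seen, and so not all that passed, they were positive for Gpr183 (5.24), Bcl6 (4.49), Bmf (2.33), Dtx1 (2.06), Notch3 (1.44) and Kit (1.23). They were negative for Pla2g4c (-5.11), P2rx7 (-4.70), Colq (-4.60), Cdkn2c (-4.02), Mki67 (-3.49), Pfkp (-3.38), Ptcra (-3.24) and Rag1 (-1.63). Cdkn2c had means of 17.1 and 5.58 CPM in wild-type DN2 and DN3a and of 5.02 and 27.1 CPM in transgenic cells, and Pfkp of 49.0 and 23.3 against 14.3 and 70.7 CPM. The cause was not tested.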

How the results depend on the processing

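The count of called genes depended on the libraries and the tool. It was 888 (396 higher, 492 lower) with edgeR and 897 with RLE factors. DESeq2 gave 1374 (670 higher), limma voom 1644 (698 and 946), the name letter as a covariate 1514 (666 and 848), and the 5 wild-type libraries alone 596 (224 higher). Leaving out 1 library gave 10 to 1687 called, 5 to 1037 higher, 5 to 650 lower, and 1654 to 3597 interactions against 2834, and voom gave 4571 interactions. Pairing the stages with a replicate block by mouse gave 942 over the young libraries, with 654 of the 888 kept, and 3514 (1747 and 1767) over the 5 wild-type libraries. Among the genes named with values, the block over the young libraries ended the calls of Nfatc2, Cxcr5 and Pla2g4c and made that of Spi1. The 76 called genes among those the naming rule picks kept their sign in every setting run, and 8 kept their call without DN2 replicate 1. Genes near 0 changed sign without passing: Dntt was at -0.12 (voom), -0.093 (letter), -0.15 and -0.17 (replicate block) and -0.16 to 0.21 on leaving out 1 library, and Tcf7 at -0.057, -0.067, -0.066 and -0.085 in the same order, -0.00796 with sex as a covariate, and -0.077 to 0.11. Lmo2, at 4 and 9 reads, ranged from -0.49 to 4.46. The cause of these shifts was not tested. At this depth, genes with few reads have bounds set by counting.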
